A study of Bos taurus with 14 samples.

Results

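Bovine embryonic stem cells (bESC) at passage 10 (P10) were compared with skin fibroblasts, gene by gene, across functions beyond pluripotency and matrix markers. The comparison rests on 4 of the 14 libraries of the series: 1 library each of bESC lines A and B and 1 each of fibroblast lines A and B. The members are every readable gene name of those libraries: 23159 of 23231 features, of which 11761 were expressed highly enough to be tested. Function is described through 38 lists, which hold 1635 different symbols, 1381 of them found in the files and 1192 of them tested.

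The bESC were derived from blastocysts and grown in CTFR medium, a custom base free of FGF2 and TGFb, to which human FGF2 and IWR1 had been added. IWR1 is a small molecule that inhibits WNT signalling. They were kept on mouse embryonic fibroblast feeders, and the labels name no genetic change in any group. The skin fibroblasts are labelled by tissue and line letter only, and their culture is not given in the sources used here. Each line gave 1 library here, and no repeat of a line at P10 is used here. A p-value therefore rests on the gaps between 2 lines of a kind and between 2 blastocyst pools. That spread is shared by the groups and moderated by the spread of all tested genes. A pair of libraries from pools of 10 whole blastocysts entered the model as the third group, because all groups then share an estimate of the spread, and is not described further.

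Pluripotent cells of the epiblast divide fast, keep an open chromatin and rely heavily on DNA repair, RNA processing and nucleotide supply. Skin fibroblasts are contractile, secretory mesenchymal cells that anchor to and build connective tissue, and they act as sentinels that answer interferon, bacterial products and injury.

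Values are RPKM, reads scaled to gene length and library size, as the authors deposited them. Zeros are called listed zeros, because GAPDH, which every cell uses, has a 0 in each of the 4 libraries and a zero can be a failed estimate. Genes were tested with limma on log2(RPKM + 1), and a gene was called at an adjusted p under 0.05. Changes are log2 differences of bESC minus fibroblast, given with their SE and relative to the median gene, which stood at 0.23. Under quantile and median-of-ratios scaling the median gene stood at 0.04 and 0.02. A gene is described as called under every scaling when it was called in the same direction on the deposited values and under both of those scalings. In the text "rose" and "fell" are used of genes called under every scaling unless stated. A gene with listed zeros in both fibroblasts could reach the level needed for testing, 1 RPKM in 2 or more libraries, only through bESC or blastocysts, so the share of higher calls in a list with many such genes is partly set by that filter. With n = 2 libraries in each group, the values of lines A and B are given in that order, bESC first. Where a list or subgroup had no call in a direction, no member passed an unadjusted p of 0.05 in that direction either, except 1 ephrin or Eph gene on the lower side.

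Of the 11761 tested genes, 4160 (35.4%) were called higher in bESC and 2576 (21.9%) lower. Under every scaling 2881 (24.5%) were called higher and 2494 (21.2%) lower, and no gene was called in opposite directions by different scalings. Higher calls made up 61.8% of calls on the deposited values, 53.2% after quantile and 51.8% after median-of-ratios scaling. Higher calls numbered 2426 without bESC line A and 2695 without line B, and lower calls 1691 without fibroblast line A. Leaving out a library also removes genes from the test, because a gene found in only 1 group then no longer reaches 1 RPKM in 2 libraries.

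Summed RPKM lay between 349527 and 365195 in the bESC and between 402939 and 435754 in the fibroblasts, and depth relative to fibroblast line A, estimated from the most common ratio between low values of the same genes, was 1.25 and 1.56 in the bESC and 1.04 in fibroblast line B. All 14 skin fibroblast markers fell. Of 12 embryonic stem cell markers 10 were found and 9 tested, and all 9 had higher calls, but 6 of them had listed zeros in both fibroblasts and so passed the filter through bESC or blastocysts. TDGF1, the marker not tested, measured 0.104 and 0.147 RPKM in bESC with listed zeros in both fibroblasts. For 8 of the 9 the call held under every scaling; NANOG, at 4.49 and 2.15 RPKM, was the exception and also lost its call without bESC line A (adjusted p = 0.113), fibroblast line A (0.0741) or fibroblast line B (0.0713). The summed level of the 14 fibroblast markers was 669 RPKM in bESC line A, 1056 in line B, 16788 in fibroblast line A and 15854 in line B. S100A4, a motility protein of mesenchymal cells, measured 1.38 RPKM in bESC line A and 16.9 in line B. Of the 2494 genes that were lower under every scaling, 65.1% were higher in bESC line B than in line A, against 49.9% of the genes not called. In bulk RNA, fewer cells of a type and less RNA per cell cannot be told apart, and the part of the feeder cells in these values was not tested. Markers of other cells were low. The keratinocyte list summed to 0.9 and 2.8 RPKM in bESC and 11.4 and 1.5 in fibroblasts, and CDX2 of the trophectoderm had a listed 0 in each of the 4 libraries. The endothelial list summed to 6.1 and 4.6 RPKM in bESC against 0.8 and 0.5 in fibroblasts, the melanocyte and Schwann cell list to 9.2 and 14.2 against 12.0 and 13.4, and the trophectoderm and hypoblast list to 6.4 and 5.0 against 15.5 and 19.8. The blood and immune list summed to 3.4 and 33.8 RPKM in bESC against 1.6 and 1.9 in fibroblasts. LYZ, the lysozyme gene of that list, measured 2.33 and 31.5 RPKM in bESC and had listed zeros in both fibroblasts; its call was lost without fibroblast line A (adjusted p = 0.0682) or line B (0.0654).

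**Figure D1:**
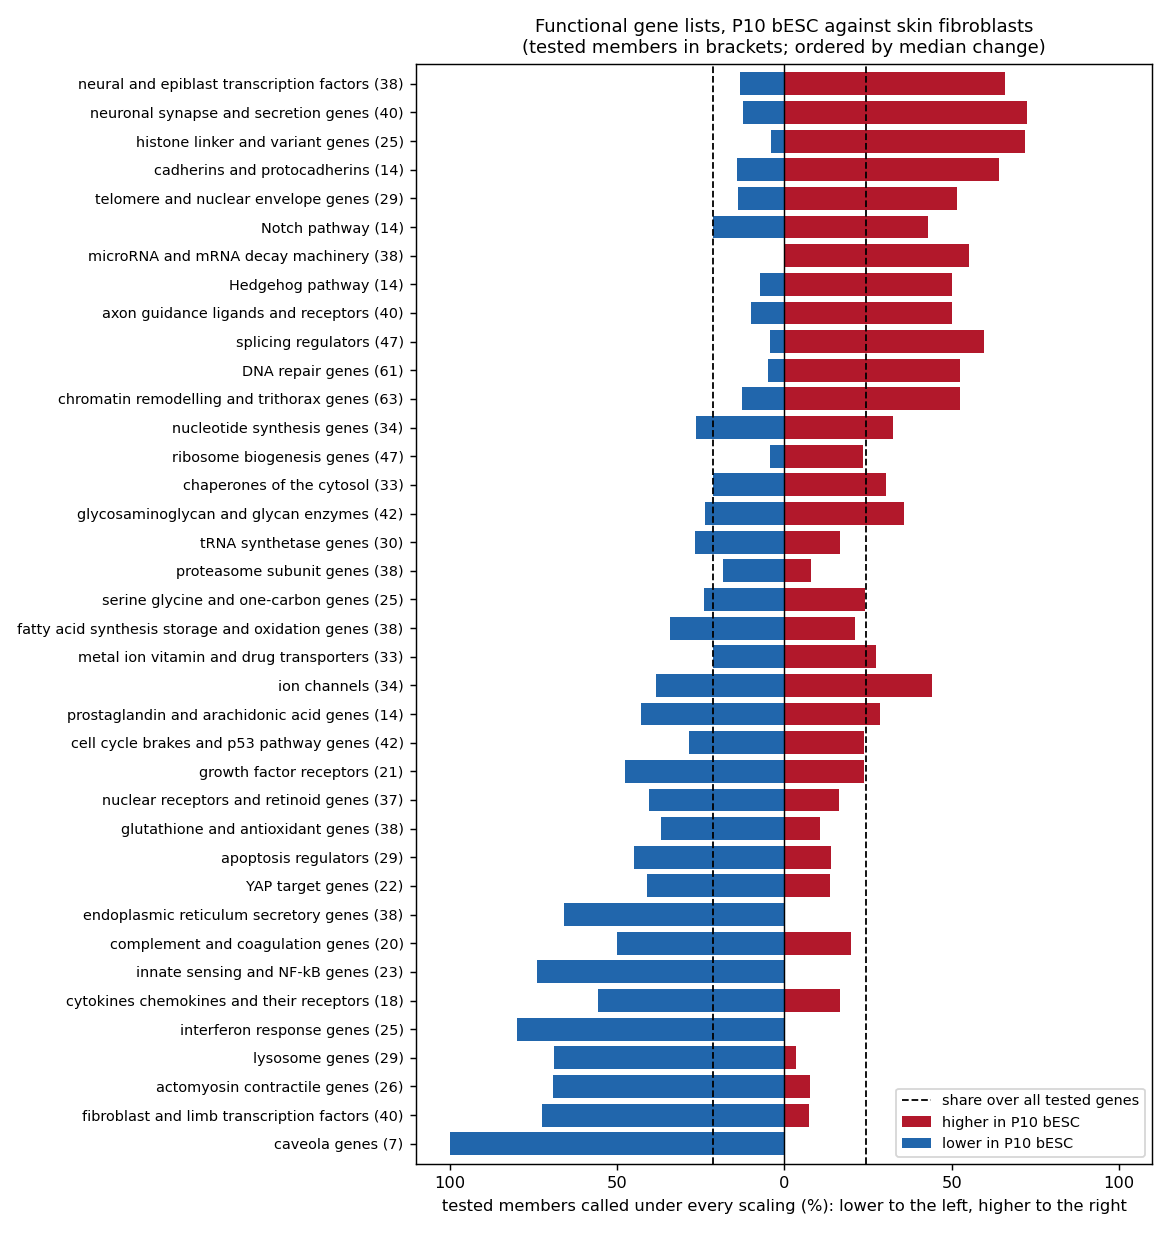
Share of the tested members of 38 function lists that were called under every scaling, higher in P10 bESC to the right and lower to the left, with the shares over all tested genes (24.5% higher, 21.2% lower) as dashed lines. Caveolar, interferon and lysosome lists extend to the left, and neuronal, histone and splicing lists to the right.

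Genes with the largest changes outside the pluripotency and matrix groups included IGF2BP1 and PODXL on the bESC side. IGF2BP1, an RNA-binding protein of fetal tissue, measured 130 and 91.5 RPKM in bESC against 0.026 RPKM in fibroblast line A and a listed 0 in line B. PODXL, a sialic acid-rich surface protein, measured 145 and 82.3 RPKM against 0.511 and 0.174 RPKM and rose by 6.14 ± 0.31. On the fibroblast side ESM1, a secreted proteoglycan, measured 0.021 and 0.134 RPKM in bESC against 137 and 137 RPKM and fell by 7.23 ± 0.19.

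Growth factor receptors were called in both directions. Of 21 tested growth factor receptor genes, 6 were called higher (5 under every scaling) and 10 lower. That was 28.6% and 47.6%, against 35.4% and 21.9% of all tested genes. Among the higher was DDR1, a collagen receptor kinase of epithelia, at 71.9 and 69.6 RPKM against 6.75 and 6.11 RPKM, a rise of 3.04 ± 0.22 (limma, adjusted p = 7.60e-05). TYRO3, a receptor kinase of the TAM family, rose by 1.94 ± 0.20, whereas its relative AXL fell by 3.07 ± 0.26. KIT, the stem cell factor receptor, measured 3.80 and 4.58 RPKM in bESC and 0.01 RPKM and a listed 0 in fibroblasts. PDGFRA, the platelet-derived growth factor receptor of mesenchyme, measured 0.968 and 2.36 RPKM against 49.3 and 65.8 RPKM and fell by 4.73 ± 0.32. OSMR, a receptor for the inflammatory cytokine oncostatin M, measured 0.057 and 0.479 RPKM against 24.5 and 20.5 RPKM. ERBB2 was present in both, at 13.3 and 16.8 RPKM and 12.1 and 7.59 RPKM, and did not pass the test.

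Guidance molecules, first known from growing axons, were called higher in 23 of 40 tested genes (20 under every scaling) and lower in 5 (4 under every scaling). The 17 tested ephrins and Eph receptors, contact signals between neighbouring cells, gave 13 calls, all higher (11 under every scaling), and 7 higher calls without bESC line A and 6 without line B. This subgroup, like those of chaperones, proteasome, synthetases, nucleotide enzymes, nucleoporins and potassium channels, was formed after the values were seen. EPHB2 measured 19.7 and 19.4 RPKM in bESC and 0.618 and 0.132 RPKM in fibroblasts, and EFNA5 measured 23.3 and 17.2 RPKM against 0.073 and 0.282 RPKM. The semaphorins did not move together. Membrane-bound SEMA6A rose from 0.041 and 0.013 to 34.9 and 26.2 RPKM, while secreted SEMA3C measured 4.05 and 4.14 RPKM in bESC against 123 and 193 RPKM and fell by 5.16 ± 0.25. NRP1, a co-receptor for class 3 semaphorins, fell by 3.56 ± 0.38, and the netrin gene NTN4 fell by 5.18 ± 0.21. Higher calls numbered 14 without bESC line A and 11 without line B.

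Cadherins, the calcium-dependent adhesion proteins, were called in both directions. Shares were 64.3% higher and 14.3% lower, against 35.4% and 21.9% of all tested genes. Of 14 tested genes 9 were called higher and 2 lower, and higher calls numbered 3 without bESC line A and 2 without line B. CDH6 measured 64.4 and 84.1 RPKM in bESC and 0.244 and 0.236 RPKM in fibroblasts and rose by 5.68 ± 0.21. CDH2, neural cadherin, measured 132 and 105 RPKM against 10.8 and 7.03 RPKM. CDH13, a membrane-anchored cadherin without a cytoplasmic tail, measured 1.52 and 5.01 RPKM against 306 and 229 RPKM and fell by 6.33 ± 0.40. CELSR2, a planar polarity cadherin, rose by 2.97 ± 0.16.

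In the Notch pathway, which passes signals between touching cells, 8 of 14 tested genes were called higher (6 under every scaling) and 3 lower. That was 57.1% and 21.4%, against 35.4% and 21.9% of all tested genes. The enzymes that add sugars to Notch receptors differed within the family. MFNG measured 32.7 and 24.7 RPKM in bESC and 0.079 and 0.383 RPKM in fibroblasts, LFNG rose by 1.96 ± 0.18, and RFNG fell by 1.53 ± 0.22. HES1, a target gene of the pathway, measured 81.5 and 41.2 RPKM against 39.4 and 29.4 RPKM and did not pass the test. Higher calls numbered 2 without bESC line A and 3 without line B.

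Hedgehog pathway genes were also mostly called higher, with 8 of 14 called higher (7 under every scaling) and CDON alone called lower. PTCH1, the receptor and a target gene of the pathway, measured 17.2 and 8.91 RPKM in bESC against 0.413 and 0.675 RPKM and rose by 2.90 ± 0.31. GAS1, a co-receptor, rose by 2.93 ± 0.18, and the transcription factor GLI2 by 2.64 ± 0.26. SMO, the signal transducer, measured 53 and 38.6 RPKM against 38.1 and 54.2 RPKM and did not pass. With either bESC line left out, 5 were called higher, and without line A the call of CDON was lost (adjusted p = 0.114), as it was without fibroblast line B (0.0882).

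Genes of caveolae and of contraction were lower in bESC. All 7 tested caveola genes fell, with a median change of -4.63. CAV1, which shapes these small membrane pits, measured 0.244 and 3.71 RPKM in bESC against 368 and 421 RPKM and fell by 7.58 ± 0.57 (limma, adjusted p = 0.000118). PTRF, also known as cavin-1, measured 0.468 and 2.21 RPKM against 148 and 112 RPKM. Both caveolar genes were higher in bESC line B than in line A, as was the summed level of the fibroblast markers, whose part in these values was not tested.

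Of 26 tested actomyosin genes 18 fell and 2 rose, with a median change of -1.73. ACTA2, smooth muscle actin, measured 9.39 and 12.1 RPKM in bESC against 1059 and 1392 RPKM and fell by 6.93 ± 0.21. TAGLN and TPM2, which bind and stiffen actin filaments, fell by 5.19 ± 0.29 and 4.34 ± 0.17. ACTC1, cardiac actin, went the other way, at 5.38 and 18.6 RPKM against 0.659 and 0.374 RPKM. ACTN1, a filament cross-linker, measured 117 and 132 RPKM against 134 and 175 RPKM and did not pass the test. The 2 higher calls were lost without bESC line A, and 1 remained without bESC line B or fibroblast line B.

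Genes of the list for YAP, a factor that reads cell tension, were called in both directions. Of 22 tested, 7 were called higher (3 under every scaling) and 10 lower (9 under every scaling). The share higher was 31.8% and the share lower 45.5%, against 35.4% and 21.9% of all tested genes. Under every scaling the shares were 13.6% and 40.9%, against 24.5% and 21.2%. CYR61, a secreted matricellular target, measured 53.2 and 16.3 RPKM in bESC against 233 and 343 RPKM and fell by 3.44 ± 0.50. ANKRD1 measured 0.416 and 0.355 RPKM against 94.4 and 12.3 RPKM, with a gap between the fibroblast lines as well. TEAD2, counted in this list as a DNA-binding partner of YAP, measured 148 and 131 RPKM against 17.2 and 18 RPKM. It rose by 2.69 ± 0.21. Lower calls numbered 6 without bESC line B and 5 without fibroblast line B. Higher calls numbered 2 without bESC line A, 3 without line B and 4 without fibroblast line B or either blastocyst pool.

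Genes of the interferon response were low in bESC. Of 25 tested, 20 fell, 1 (SAMHD1) was called higher on the deposited values only, and the median change was -1.62. IFNGR2, a chain of the interferon gamma receptor, measured 1.86 and 3.15 RPKM in bESC against 167 and 99.0 RPKM and fell by 5.47 ± 0.31. IFNAR2, of the type I receptor, measured a listed 0 and 0.026 RPKM against 11.6 and 6.63 RPKM. The transcription factor IRF1 measured 0.225 and 0.375 RPKM against 18.7 and 22.2 RPKM and fell by 4.27 ± 0.23 (limma, adjusted p = 4.25e-05). IFIT1, which blocks translation of viral RNA, fell by 5.32 ± 0.24. IFITM2, a membrane protein against virus entry, measured 0.417 and 1.34 RPKM against 162 and 137 RPKM; it belongs to a family of similar genes, and how their reads were divided is not given in the sources used here. STAT2, a shared signal carrier, measured 11.4 and 10.2 RPKM against 13.6 and 11.3 RPKM and did not pass. Lower calls numbered 11 without fibroblast line A and 11 without line B.

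Sensors of microbes and the NF-kB factors they switch on were also called lower, with 17 of 23 tested genes lower, none higher and a median change of -1.32. TLR3, the receptor for double-stranded RNA, measured 0.014 and 0.103 RPKM in bESC against 4.31 and 5.52 RPKM. TMEM173, also known as STING, measured 0.221 and 0.48 RPKM against 6.52 and 7.91 RPKM, and TLR2 fell by 2.94 ± 0.21. MYD88, the adaptor of most Toll-like receptors, fell by 1.74 ± 0.20. NFKB1 fell by 1.41 ± 0.24, and IRAK1, a kinase below the receptors, measured 15.7 and 14.6 RPKM against 21.1 and 16.9 RPKM and did not pass. Without fibroblast line A 11 genes were called lower.

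Secreted signals of inflammation followed in part. Among 18 tested cytokine and chemokine genes and receptors 10 fell and 4 were called higher (3 under every scaling). The share lower was 55.6% and the share higher 22.2%, against 21.9% and 35.4% of all tested genes. CXCL16, a membrane-bound chemokine, was listed at 0 in both bESC lines and measured 122 and 86.5 RPKM in fibroblasts. CCL2, which recruits monocytes, measured 0.111 and 0.178 RPKM against 78.0 and 43.3 RPKM. MIF, a cytokine that is also widely expressed in dividing cells, measured 191 and 181 RPKM in bESC against 9.67 and 10.1 RPKM. It rose by 3.87 ± 0.20. CXCL6, which attracts neutrophils, measured 2.14 and 0.582 RPKM in bESC against 80.5 and 13.5 RPKM, so the fibroblast lines also differed. Without bESC line B 2 genes were called higher.

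Complement and coagulation genes divided into both directions, with 10 of 20 tested lower and 5 higher (4 under every scaling). That was 50% lower and 25% higher, against 21.9% and 35.4% of all tested genes. TFPI2, a protease inhibitor, fell by 6.41 ± 0.28. The receptor PLAUR, which holds urokinase at the surface, fell by 4.36 ± 0.23. The protease-activated receptor F2RL1 measured 32.5 and 29.7 RPKM in bESC and 0.242 RPKM and a listed 0 in fibroblasts. A2M, a broad protease inhibitor, measured 5.99 and 6.22 RPKM against 0.011 RPKM and a listed 0. CFB, complement factor B, measured 24.6 and 119 RPKM against 16.8 and 1.93 RPKM, and its call on the deposited values was lost without bESC line B (adjusted p = 0.18), fibroblast line B (0.159) or blastocyst pool A (0.0641) or B (0.0639). Lower calls numbered 5 without fibroblast line A and 6 without line B, and higher calls 3 without bESC line B.

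Members of the prostaglandin and arachidonic acid list went both ways. Of those tested, 28.6% were called higher and 42.9% lower, against 35.4% and 21.9% of all tested genes. PTGS1 (COX-1), an enzyme that opens prostaglandin synthesis, measured 0.46 and 4.71 RPKM in bESC against 77.2 and 68.9 RPKM and fell by 4.91 ± 0.58. HPGD, which inactivates prostaglandins, measured 0.018 RPKM and a listed 0 against 18.8 and 36.7 RPKM. LTA4H, which makes leukotriene B4, measured 73.0 and 66.9 RPKM against 13.4 and 13.1 RPKM and rose by 2.08 ± 0.17. AKR1B1 and PTGES3, also of this list, rose by 1.48 ± 0.16 and 1.35 ± 0.21. PTGES fell, at 0.401 and 3.79 RPKM against 43.2 and 7.33 RPKM, so the fibroblast lines also differed. Of 14 tested genes 6 fell and 4 rose, and lower calls numbered 2 without fibroblast line A and 3 without line B.

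**Figure D2:**
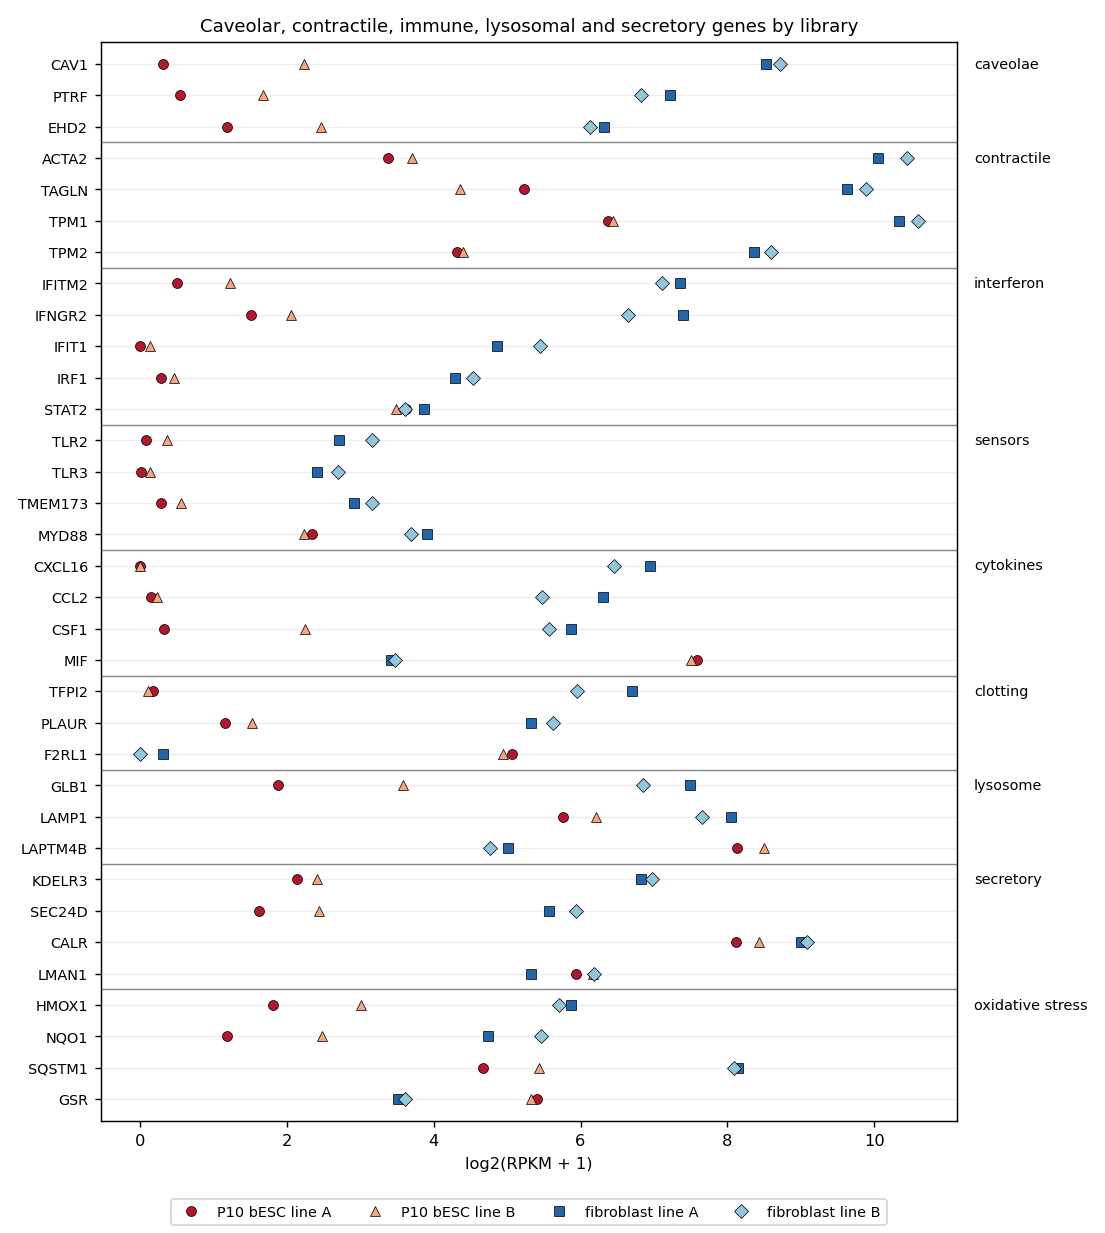
log2(RPKM + 1) of caveolar, contractile, immune, lysosomal, secretory and oxidative stress genes in each of the 4 libraries, 1 marker per library. In CAV1, ACTA2 and IFITM2 the bESC libraries sit far to the left of the fibroblasts, whereas MIF, F2RL1, LAPTM4B and GSR lie to the right. Most genes shown were chosen by their calls or after their values were seen, so the separation largely follows from that choice.

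Lysosomal genes were mostly called lower in bESC. Of 47 symbols in the list 29 were found, all of them tested, and the cathepsins are among those not analysed here. Of the 29, 22 were called lower (20 under every scaling) and 1 higher, the median being -1.62. GLB1, the beta-galactosidase used to stain senescent cells, measured 2.69 and 11 RPKM in bESC against 178 and 114 RPKM and fell by 4.66 ± 0.53. LAMP1, a main protein of the lysosomal membrane, measured 53.1 and 72.8 RPKM against 264 and 201 RPKM. TFEB, the transcription factor of lysosome genes, measured 0.352 and 0.547 RPKM against 3.75 and 3.56 RPKM and fell by 1.92 ± 0.28. LAPTM4B measured 279 and 361 RPKM against 31.2 and 26.3 RPKM and rose by 3.20 ± 0.21.

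Genes that fold, check and ship secreted proteins from the endoplasmic reticulum were likewise lower, 28 of 38 tested on the deposited values and 25 under every scaling, with none higher. KDELR3, which returns chaperones to the endoplasmic reticulum, measured 3.41 and 4.30 RPKM in bESC against 112 and 125 RPKM and fell by 4.86 ± 0.25. Its relative KDELR2 fell by 1.30 ± 0.17. SEC24D, a coat protein of export vesicles that carry collagen, measured 2.09 and 4.41 RPKM against 46.4 and 60.2 RPKM. Folding and cargo factors were also seen at like levels: HYOU1 measured 45.0 and 50.1 RPKM against 32.5 and 45.1 RPKM, and LMAN1 measured 60.5 and 70.7 RPKM against 39.1 and 72.0 RPKM, and neither passed.

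Cytosolic chaperones were called in both directions, and the classes described here were formed after the values were seen. Of 33 tested, 14 were called higher (10 under every scaling) and 8 lower (7). The shares for the whole list, 42.4% and 24.2%, stood against 35.4% and 21.9% of all tested genes. The 8 subunits of the chaperonin CCT, which folds actin and tubulin, gave 7 higher calls (5 under every scaling) and a median change of 0.54, and 4 higher calls without bESC line A. CCT4 measured 188 and 226 RPKM in bESC against 106 and 102 RPKM. HSP90AB1, the constitutive HSP90, measured 134 and 207 RPKM against 41.6 and 40.1 RPKM and rose by 1.77 ± 0.30. The small heat shock proteins, which hold unfolded proteins in muscle and fibroblasts, gave 4 lower calls among 5. CRYAB measured 2.77 and 4.42 RPKM against 313 and 194 RPKM and fell by 6.0 ± 0.42, and HSPB6 fell by 4.51 ± 0.31. Higher calls numbered 9 without bESC line A or fibroblast line A, and lower calls 4 without fibroblast line A.

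Few proteasome subunits were called, apart from those of the immunoproteasome. Of 38 tested genes 6 were called higher (3 under every scaling) and 7 lower, both under the shares of all genes, and the median change was -0.04. PSMB4, a core subunit, measured 150 and 150 RPKM in bESC against 130 and 117 RPKM. The 5 genes of the interferon-inducible form and its cap, PSMB8, PSMB9, PSMB10, PSME1 and PSME2, all fell, with a median of -2.09. PSMB8 measured 2.26 and 3.70 RPKM against 22.3 and 28.2 RPKM (limma, adjusted p = 0.000333). The 33 other subunits had a median of 0.00 and 2 lower calls, both lost when any 1 of the 4 libraries was left out. The call of PSME2 was lost without bESC line A (adjusted p = 0.0525). Higher calls numbered 2 without bESC line A or fibroblast line A and 3 without fibroblast line B, and lower calls 4 without bESC line A.

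Transfer RNA synthetases, which load amino acids onto tRNA, were called in both directions. Of 30 tested, 9 were called higher (5 under every scaling) and 8 lower. These shares, 30% and 26.7%, lay near the 35.4% and 21.9% of all tested genes. The 12 mitochondrial enzymes gave 6 higher calls (3 under every scaling) and 1 lower, and the 18 others 3 higher (2) and 7 lower, the last being 4 without bESC line B or either fibroblast line. WARS, for tryptophan and inducible by interferon gamma, measured 22.7 and 12.0 RPKM in bESC against 278 and 259 RPKM and fell by 4.17 ± 0.28. SARS, for serine, fell by 2.45 ± 0.21, AARS, for alanine, by 2.11 ± 0.30 and GARS, for glycine, by 1.89 ± 0.35. GARS measured 121 RPKM in bESC line A and 55.2 in line B, and its change was -1.22 without line B. Line A was above line B in 16 of the 18 non-mitochondrial enzymes and in 6 of the 12 mitochondrial ones. Of all tested genes 50.5% were higher in line B. This tilt was not particular to synthetases. Line A was also the higher in 26 of the 33 other proteasome subunits and 17 of the 19 de novo nucleotide genes. It was the higher in only 1 of the 5 small heat shock proteins and in 8 of the 17 ephrins and Eph receptors. Lower calls numbered 5 without bESC line B or either fibroblast line.

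**Figure D3:**
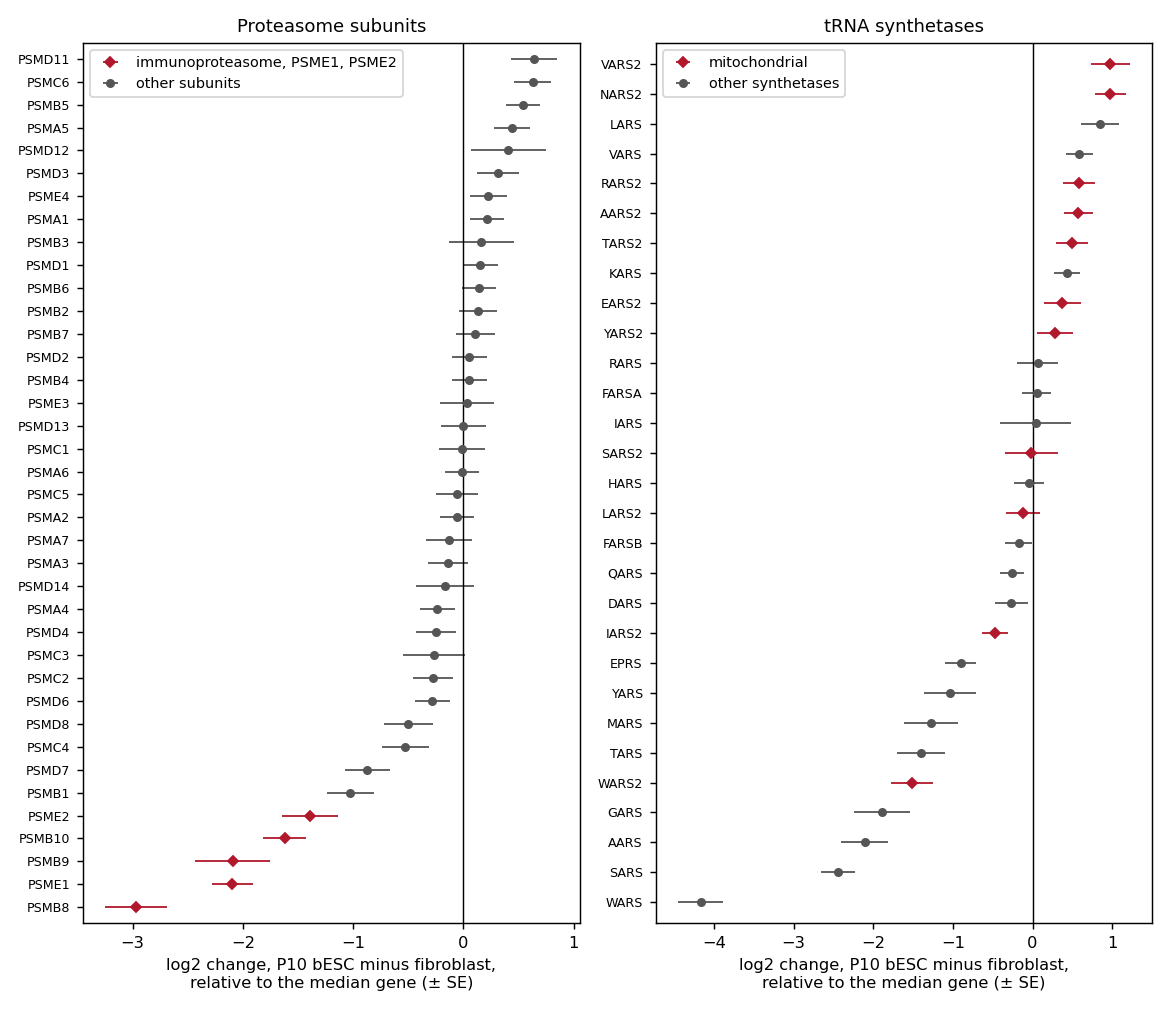
log2 change of the proteasome subunits (left) and of all but 1 of the tested tRNA synthetases (right), P10 bESC minus fibroblast and relative to the median gene, with bars for the SE. The immunoproteasome genes, PSME1 and PSME2 lie lowest among the subunits, and WARS, SARS, AARS and GARS lie lowest among the synthetases.

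Serine and one-carbon genes, which supply glycine and methyl groups, were called in both directions, 10 of 25 tested higher (6 under every scaling) and 6 lower. These shares, 40% and 24%, lay near the 35.4% and 21.9% of all tested genes. Under every scaling they were 24% and 24%, against 24.5% and 21.2%. The serine-making enzymes were uneven between the bESC lines. PSAT1 measured 28.7 and 6.29 RPKM in bESC against 155 and 157 RPKM and fell by 3.65 ± 0.63. PHGDH, the first enzyme of the route, measured 111 and 48.5 RPKM against 191 and 173 RPKM. It fell by 1.52 on the log2 scale, and its call was lost without bESC line B (-0.82, adjusted p = 0.0523) and without fibroblast line A (0.0902) or line B (0.0638). PSPH measured 72.5 and 19.8 RPKM against 74.7 and 79.4 RPKM and did not pass. Line A was the higher bESC library in all 3, as it was for ATF4, the transcription factor of the amino acid response, at 359 and 106 RPKM against 450 and 420 RPKM, and DDIT3, a stress factor of the same response, at 14.1 and 6.93 RPKM against 84.5 and 78.2 RPKM. GCSH, of the glycine cleavage system, measured 23.0 and 29.8 RPKM against 5.92 and 3.51 RPKM, and AHCY, which clears the product of methylation, rose by 1.60 ± 0.20. Without fibroblast line B 3 genes were called lower.

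Most of the enzymes that build nucleotides from scratch were called higher, and most of those that salvage them fell. The whole list of 34 gave 16 higher calls (11 under every scaling) and 9 lower. That was 47.1% and 26.5%, against 35.4% and 21.9% of all tested genes. Of 19 genes of de novo and deoxynucleotide synthesis 13 were called higher (9 under every scaling) and none lower, the median being 0.79. DUT, which keeps uracil out of DNA, measured 412 and 379 RPKM in bESC against 93.1 and 85.7 RPKM and rose by 1.90 ± 0.28. Of 8 salvage genes 5 fell and 1, DCK, rose. HPRT1 measured 17.9 and 13.0 RPKM against 63.5 and 58.4 RPKM and fell by 2.16 ± 0.26, and PNP, which frees purine bases, measured 52.0 and 23.8 RPKM against 349 and 175 RPKM.

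Fatty acid genes were called in both directions. Of 38 tested, 13 were called higher (8 under every scaling) and 13 lower. Each share was 34.2%, against 35.4% higher and 21.9% lower of all tested genes. Enzymes of synthesis included FASN, the fatty acid synthase, which measured 133 and 139 RPKM in bESC against 35.2 and 37.0 RPKM, a rise of 1.66 ± 0.18, and ACLY, which supplies its acetyl units, rose by 1.53 ± 0.18. ACADVL, which starts mitochondrial oxidation, measured 4.97 and 8.11 RPKM against 81.5 and 54.8 RPKM, and ACSL5, which activates fatty acids, fell by 4.88 ± 0.31. ACADL, of the same dehydrogenase family as ACADVL, measured 7.01 and 5.41 RPKM against 3.40 and 3.34 RPKM. It was called higher on the deposited values (0.48 ± 0.20), a call lost under both other scalings and without bESC line A or either fibroblast line. The desaturase-like FADS3 measured 0.88 and 2.11 RPKM against 74.7 and 104 RPKM, while FADS2 measured 59.5 and 49.0 RPKM against 48.6 and 61.5 RPKM and did not pass. FABP7, the fatty acid carrier of neural progenitors, measured 66.8 and 109 RPKM against 0.264 and 0.064 RPKM and rose by 5.99 ± 0.28. FABP4, the carrier of fat cells, measured a listed 0 and 0.386 RPKM against 16.9 and 6.22 RPKM. Higher calls numbered 7 without either bESC line and 8 without fibroblast line A, and lower calls 8 without fibroblast line A.

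Among 38 tested glutathione and antioxidant genes 15 were called lower (14 under every scaling) and 4 higher. NFE2L2, the factor that senses oxidants, measured 24.9 and 21.6 RPKM in bESC against 68.1 and 67.6 RPKM and fell by 1.74 ± 0.20. HMOX1, heme oxygenase, measured 2.53 and 7.08 RPKM against 57.5 and 51.0 RPKM, NQO1 fell by 3.49 ± 0.46 and SRXN1 by 2.82 ± 0.21. SQSTM1, an autophagy receptor, measured 24.6 and 42.1 RPKM against 282 and 272 RPKM. GSR, which regenerates glutathione, measured 41.3 and 39.1 RPKM against 10.4 and 11.2 RPKM and rose by 1.57 ± 0.16. PRDX1, a peroxide-removing enzyme, measured 874 and 1339 RPKM against 563 and 700 RPKM and did not pass.

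Ribosome biogenesis depended on the scaling. On the deposited values 20 of 47 tested genes were called higher, under every scaling 11, against 2 lower, and the median change was 0.26. The share called higher was 42.6% on the deposited values, against 35.4% of all genes, and 23.4% under every scaling, against 24.5%. FBL, which methylates ribosomal RNA, measured 144 and 127 RPKM in bESC against 57.2 and 52.6 RPKM and rose by 1.06 ± 0.18. NPM1, a main nucleolar protein, measured 335 and 317 RPKM against 258 and 311 RPKM and did not pass. Higher calls numbered 8 without bESC line A, 11 without fibroblast line A and 10 without line B. Both lower calls, NOP14 and NOP16, were lost without bESC line B or fibroblast line A, and 1 remained without fibroblast line B or either blastocyst pool.

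DNA repair genes were mostly called higher in bESC. Of 61 tested, 42 were called higher (32 under every scaling) and 3 lower, the median being 0.84. UNG, which removes uracil from DNA, measured 91.9 and 66.8 RPKM in bESC against 8.86 and 8.32 RPKM and rose by 2.82 ± 0.20 (limma, adjusted p = 6.64e-05). In mismatch repair MSH6 measured 94.4 and 65.2 RPKM against 9.53 and 11.9 RPKM. In homologous recombination BRCA1 measured 34.4 and 29.7 RPKM against 3.30 and 5.80 RPKM, and BRCA2 and its helper PALB2 rose by 2.24 ± 0.30 and 1.26 ± 0.29. CHEK1, the checkpoint kinase of stalled forks, measured 48.0 and 39.2 RPKM against 5.49 and 6.10 RPKM. The end-joining gene XRCC4, the crosslink repair gene FANCL and the nucleotide excision gene ERCC1 were on the other side. FANCL measured 6.58 and 5.93 RPKM against 13.8 and 14.3 RPKM and fell by 1.28 ± 0.19. ERCC1 measured 5.41 and 9.07 RPKM against 46.9 and 36.9 RPKM and fell by 2.64 ± 0.30. XRCC4 fell by 1.03 ± 0.21, a call lost without either bESC line or without fibroblast line B, with adjusted p-values of 0.0511 to 0.0709. APEX1, of base excision, measured 138 and 111 RPKM against 94.0 and 76.8 RPKM and did not pass.

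Brakes of the cell cycle were called in both directions, 13 of 42 tested genes higher (10 under every scaling) and 12 lower. These shares, 31% and 28.6%, lay near the 35.4% and 21.9% of all tested genes. CDKN1A, a cell cycle inhibitor, measured 9.18 and 7.60 RPKM in bESC against 62.5 and 51.1 RPKM and fell by 2.85 ± 0.26. CDKN2C, an inhibitor of CDK4 and its relative, measured 0.732 and 0.486 RPKM against 13.0 and 16.9 RPKM and fell by 3.54 ± 0.23. CDKN2B measured 0.161 and 3.86 RPKM against 14.3 and 17.5 RPKM and fell by 3.05 ± 0.60, with a change of -1.93 without bESC line A. CDKN2A measured 0.085 and 8.75 RPKM against 3.86 and 3.93 RPKM, so the bESC lines lay on either side of the fibroblasts and its direction depends on the line (0.86 without line A, -2.29 without line B). CDKN1C, another inhibitor, rose by 2.07 ± 0.32, and CCNE1, the cyclin of entry into replication, rose by 1.52 ± 0.30. Without bESC line A 8 genes were called higher.

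Apoptosis regulators were called in both directions. Shares were 20.7% higher and 44.8% lower, against 35.4% and 21.9% of all tested genes. Of 45 symbols in the list 32 were found and 29 tested; 13 fell and 6 were called higher (4 under every scaling). The caspases of the list are among the symbols not analysed here. FAS, a death receptor, measured 0.183 and 0.172 RPKM in bESC against 13.8 and 9.90 RPKM and fell by 3.66 ± 0.21. TRADD, an adaptor of death receptors, fell by 2.60 ± 0.18. MLKL, which carries out necroptosis, measured a listed 0 and 0.142 RPKM against 7.44 and 9.16 RPKM, and GSDMD, the pore of pyroptosis, fell by 2.89 ± 0.40. In the mitochondrial route APAF1, the scaffold of the apoptosome, measured 6.54 and 7.60 RPKM against 1.01 and 1.48 RPKM, and BCL2L11, also known as BIM, rose by 1.69 ± 0.16. BAX measured 35.9 and 61.6 RPKM against 74.1 and 58.5 RPKM and did not pass. Lower calls numbered 7 without fibroblast line A and 8 without line B, and higher calls 3 without bESC line A.

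Chromatin remodelling genes were higher, 40 of 63 tested on the deposited values and 33 under every scaling, with 8 lower and a median change of 0.82. ARID3A, a DNA-binding factor, measured 35.6 and 33.8 RPKM in bESC against 0.727 and 0.76 RPKM and rose by 4.12 ± 0.19. CHD7, a remodeller needed in neural crest and sense organs, measured 40.6 and 28.1 RPKM against 0.639 and 0.992 RPKM. The BAF complex changed by subunit. SMARCC1, its core scaffold in stem cells, measured 115 and 90.4 RPKM against 10.6 and 15.8 RPKM and rose by 2.65 ± 0.24, whereas SMARCC2 measured 29.8 and 23.8 RPKM against 19.5 and 23.1 RPKM and did not pass. SMARCD1 rose by 1.87 ± 0.20 and its relative SMARCD3 fell by 2.39 ± 0.21. The ATPase SMARCA2 measured 2.27 and 2.93 RPKM against 19.1 and 14.3 RPKM and fell by 2.52 ± 0.23. MBD2, which reads methylated DNA, measured 11.7 and 13.4 RPKM against 115 and 113 RPKM. HDAC2 rose by 2.35 ± 0.22, while HDAC1 measured 58.9 and 73.0 RPKM against 56.9 and 51.4 RPKM and did not pass. Lower calls numbered 5 without bESC line A, 3 without line B and 5 without fibroblast line B.

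Linker histones, histone variants and their carriers gave 18 higher calls among 25 tested, all under every scaling, and 1 lower. H2AFY2, the second macroH2A gene, measured 123 and 88.2 RPKM in bESC against 0.776 and 1.12 RPKM and rose by 5.53 ± 0.23 (limma, adjusted p = 2.32e-05). The first macroH2A gene, H2AFY, measured 29.9 and 23.6 RPKM against 30.9 and 39.3 RPKM and did not pass. HMGA1 and HMGA2, small proteins that bend DNA, measured 582 and 536 RPKM and 84.8 and 92.3 RPKM in bESC, against 26.3 and 26.5 RPKM and 1.09 and 1.05 RPKM. NASP, a carrier of free histones, measured 478 and 267 RPKM against 21.2 and 20.7 RPKM. H2AFJ, a variant H2A, fell by 1.26 ± 0.22. Without bESC line B 2 genes were called lower.

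Regulators of splicing were higher in 35 of 47 tested genes (28 under every scaling) and lower in 2, both of the muscleblind family. KHDRBS3, of the STAR family, measured 16.2 and 23.3 RPKM in bESC against 1.06 and 0.428 RPKM and rose by 3.34 ± 0.27. PTBP2, the neural form of the polypyrimidine tract binding protein, measured 18.2 and 9.85 RPKM against 1.20 and 2.10 RPKM. MBNL1, which promotes splicing patterns of differentiated cells, measured 3.99 and 4.52 RPKM against 18.4 and 38.7 RPKM and fell by 2.63 ± 0.45, and MBNL2 fell by 2.06 ± 0.36. The epithelial regulators ESRP1 and ESRP2 were under 0.4 RPKM in all 4 libraries. Without bESC line A 21 genes were called higher.

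The machinery of microRNAs and mRNA decay gave 28 higher calls among 38 tested (21 under every scaling) and none lower, although ZFP36 was called lower without bESC line A (adjusted p = 0.0174) and CPEB4 without fibroblast line A (0.0374). DROSHA and DICER1, the enzymes that cut microRNA precursors, measured 18.1 and 13.0 RPKM and 18.5 and 17.6 RPKM in bESC against 5.02 and 4.12 RPKM and 3.75 and 6.93 RPKM. ZCCHC11, which tails precursors bound by LIN28, measured 22.2 and 21.7 RPKM against 3.52 and 5.15 RPKM and rose by 1.89 ± 0.25. TRIM71, a target of let-7 microRNAs, measured 5.40 and 3.57 RPKM with listed zeros in both fibroblasts. The scaffold CNOT1 of the deadenylase complex rose by 1.20 ± 0.18, and UPF1, of nonsense-mediated decay, measured 28.2 and 27 RPKM against 20.5 and 21.2 RPKM and did not pass.

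At the nuclear envelope the lamins went in opposite directions. LMNA, the lamin that scales with tissue stiffness, measured 6.61 and 22.1 RPKM in bESC against 278 and 250 RPKM and fell by 4.55 ± 0.48. LMNB1 measured 108 and 74.6 RPKM against 15.8 and 18.5 RPKM and rose by 2.10 ± 0.26, and LBR, a receptor that ties heterochromatin to the envelope, rose by 2.44 ± 0.28. NUP210, a pore protein, measured 24.0 and 22.9 RPKM in bESC and 0.019 RPKM and a listed 0 in fibroblasts. All 7 calls among 9 tested nucleoporins were higher. Of 29 tested genes of telomeres and the envelope 18 were called higher (15 under every scaling) and 4 lower. TERT, the telomerase enzyme, was too low to be tested, at 0.722 and 0.725 RPKM in bESC with listed zeros in both fibroblasts.

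Nuclear receptors and retinoid genes were called in both directions. Of 37 tested, 15 fell and 7 were called higher (6 under every scaling). That was 40.5% lower and 18.9% higher, against 21.9% and 35.4% of all tested genes. CYP26A1, which breaks down retinoic acid, measured 95.5 and 92.3 RPKM in bESC with listed zeros in both fibroblasts. STRA6, the uptake receptor for retinol, measured 10.0 and 14.1 RPKM against 0.036 and 0.017 RPKM and rose by 3.42 ± 0.20. NR6A1, an orphan receptor of the germline and early embryo, measured 119 and 134 RPKM against 0.423 and 0.408 RPKM and rose by 6.26 ± 0.21. The retinoic acid-making enzymes ALDH1A1 and ALDH1A3 fell by 2.63 ± 0.32 and 3.04 ± 0.20. NR2F1, an orphan receptor of mesenchyme and neural crest, measured 0.221 and 0.267 RPKM against 41.6 and 62.1 RPKM, and VDR, the vitamin D receptor, measured a listed 0 and 0.073 RPKM against 24.7 and 12.2 RPKM. RARG, a retinoic acid receptor, measured 37.1 and 34.6 RPKM against 31.6 and 25.9 RPKM and did not pass. Lower calls numbered 5 without fibroblast line A and 8 without line B, and higher calls 3 without bESC line A and 4 without line B.

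Transcription factors of fibroblasts and limb mesenchyme were lower in 29 of 40 tested genes and higher in 5 (3 under every scaling), with a median change of -2.30. PRRX2 measured 0.414 and 0.708 RPKM in bESC against 216 and 146 RPKM and fell by 7.08 ± 0.28. PRRX1, its relative, measured 0.653 and 7.79 RPKM against 138 and 157 RPKM. TWIST2 fell by 3.62 ± 0.41. Not all mesenchymal factors followed: ZEB1 measured 9.51 and 12.8 RPKM against 5.00 and 11.1 RPKM and ZEB2 measured 30.9 and 25.4 RPKM against 18.9 and 31.0 RPKM, and neither passed. EYA1, a transcriptional cofactor, rose by 1.60 ± 0.31. Lower calls numbered 17 without fibroblast line A and 16 without line B, and higher calls 2 without either bESC line.

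Transcription factors of the epiblast and early nervous system were higher, 28 of 38 tested on the deposited values and 25 under every scaling, with 5 lower; the median change was 2.09. The files held 57 members. Of the tested ones 10 had listed zeros in both fibroblasts, so the filter sets part of this share, and their fitted changes depend on the pseudocount. SIX3, of the anterior forebrain and eye, measured 68.7 and 70.4 RPKM in bESC against 0.024 RPKM and a listed 0. SALL2 measured 120 and 146 RPKM against 1.36 and 0.669 RPKM and rose by 5.84 ± 0.24, and HESX1, a repressor of the anterior epiblast, measured 154 and 120.1 RPKM against 1.58 and 1.66 RPKM. LHX5 measured 39.3 and 28.8 RPKM with listed zeros in both fibroblasts. The MYC family went both ways: MYCN measured 39.4 and 19.6 RPKM in bESC with listed zeros in both fibroblasts, and MYC measured 0.718 and 0.97 RPKM against 23.4 and 19.7 RPKM and fell by 3.84 ± 0.23. The Iroquois factors IRX1 and IRX3 fell by 2.63 ± 0.29 and 2.51 ± 0.26. Higher calls numbered 13 without bESC line A and 11 without line B, and lower calls 2 without fibroblast line A and 3 without line B.

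Genes of neuronal outgrowth, synapses and regulated secretion gave 30 higher calls among 40 tested (29 under every scaling) and 5 lower. The files held 55 members, and 8 of the 40 tested had listed zeros in both fibroblasts, so the filter sets part of this share. NNAT, an imprinted membrane protein of developing brain, measured 410 and 285 RPKM in bESC against 3.12 and 0.784 RPKM and rose by 6.75 ± 0.40. CRMP1, which steers growth cones, measured 100.5 and 105 RPKM, and LRRN1, a leucine-rich surface protein, measured 64.2 and 59.2 RPKM, and both had listed zeros in the fibroblasts. CHGA, chromogranin A of secretory granules, measured 22.9 and 24.6 RPKM against 0.084 and 0.027 RPKM. SNAP25, of vesicle fusion, measured 6.02 and 8.30 RPKM with listed zeros in both fibroblasts, and SYN1 measured 5.62 and 4.74 RPKM against 0.835 and 0.134 RPKM. VAMP8, a fusion protein of non-neuronal cells, fell by 3.68 ± 0.22, and THY1, found on neurons as well as fibroblasts, fell by 6.92 ± 0.33. Higher calls numbered 9 without bESC line A and 11 without line B, and lower calls 3 without bESC line A or fibroblast line A.

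**Figure D4:**
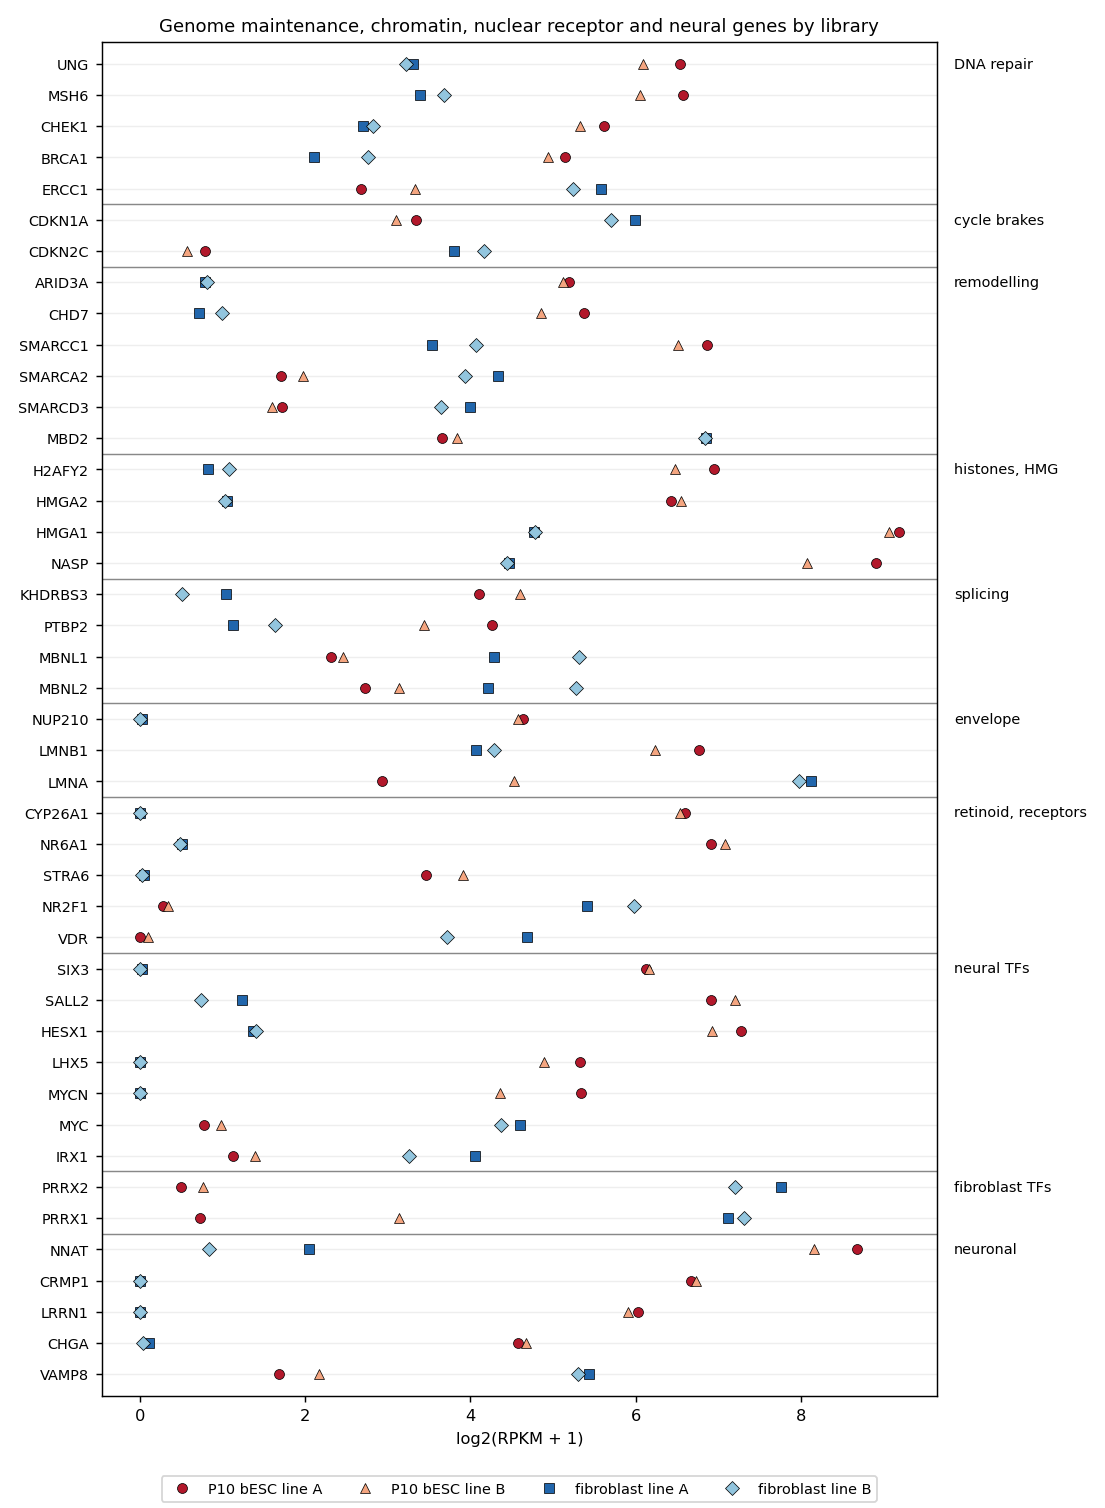
log2(RPKM + 1) of genome maintenance, chromatin, nuclear envelope, nuclear receptor, transcription factor and neuronal genes in each of the 4 libraries. Most markers of bESC lie to the right of the fibroblasts, and ERCC1, CDKN1A, SMARCA2, MBD2, LMNA, NR2F1, MYC and PRRX2 lie to the left. Most genes shown were chosen by their calls or after their values were seen, so the separation largely follows from that choice.

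Ion channel genes were called higher in 15 of 34 tested and lower in 13, and 7 of the tested genes had listed zeros in both fibroblasts. Shares were 44.1% higher and 38.2% lower, against 35.4% and 21.9% of all tested genes. SCN8A, a neuronal sodium channel, measured 5.85 and 5.81 RPKM in bESC against 0.025 and 0.064 RPKM. CLCN3, an exchanger of endosomes, measured 16.4 and 18.3 RPKM against 1.96 and 1.37 RPKM and rose by 2.56 ± 0.21. The 10 potassium channel genes gave 6 higher calls and 4 lower. With either bESC line left out 5 of the 10 could still be tested, and with either fibroblast line left out 6. The others left the test through the filter, so these fits cannot show whether their calls hold. KCNK12 measured a listed 0 and 0.16 RPKM against 13.7 and 7.25 RPKM, and P2RX4, a channel opened by ATP, fell by 2.85 ± 0.38. Higher calls numbered 6 without bESC line A and 5 without line B, and lower calls 4 without fibroblast line A and 5 without line B.

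Transporters of metals, vitamins and drugs gave 12 higher calls among 33 tested (9 under every scaling) and 7 lower. These shares, 36.4% and 21.2%, lay close to the 35.4% and 21.9% of all tested genes. The drug exporters differed: ABCC4 measured 51.3 and 53.3 RPKM in bESC against 2.44 and 2.90 RPKM and rose by 3.63 ± 0.17, and ABCB1, P-glycoprotein, measured 0.324 and 0.311 RPKM against 9.79 and 10.3 RPKM and fell by 3.30 ± 0.19. The nucleoside carriers differed as well, with SLC29A2 rising by 2.54 ± 0.38 and SLC29A1 at 8.52 and 8.65 RPKM against 128 and 77.1 RPKM. SLC39A14, which takes up zinc, iron and manganese, rose by 2.27 ± 0.23. The ferritin chain FTH1 measured 1023 and 1621 RPKM against 866 and 646 RPKM and did not pass. Lower calls numbered 4 without bESC line A or fibroblast line B.

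Enzymes of sugar chains were called higher in 16 of 42 tested (15 under every scaling) and lower in 10. The shares of 38.1% and 23.8% lay close to those of all tested genes, and 3 of the tested members had listed zeros in both fibroblasts. HAS2, the hyaluronan synthase of the embryo, measured 53.6 and 26.3 RPKM in bESC against 0.793 and 0.409 RPKM and rose by 4.37 ± 0.35. MGAT3, which adds a branch that stops further branching of N-glycans, measured 11.2 and 10.3 RPKM with listed zeros in both fibroblasts. PAPSS2, which makes the sulfate donor for proteoglycans, measured 0.065 and 0.438 RPKM against 12.9 and 37.4 RPKM and fell by 4.45 ± 0.46, while PAPSS1 measured 51.6 and 57.6 RPKM against 40.2 and 41.2 RPKM and did not pass. DSE, which turns chondroitin into dermatan sulfate, fell by 2.07 ± 0.28. Higher calls numbered 7 without bESC line A and 6 without line B, and lower calls 6 without bESC line A or fibroblast line B.

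Among 30 pairs of related genes, 6 had members called in opposite directions under every scaling, 5 moved in the same direction, 15 had at most 1 member called and 4 could not be compared because a member was not tested. Ratios of RPKM within a library are given for the 6. LMNA to LMNB1 stood at 0.0611 and 0.296 in bESC and at 17.6 and 13.5 in fibroblasts, so that LMNA transcripts were the minor form in bESC and the major form in fibroblasts. CDH2 to CDH11 stood at 2.18 and 1.84 against 0.0438 and 0.0302. NOTCH1 to NOTCH2 stood at 1.39 and 1.12 against 0.174 and 0.163, and the receptor tyrosine kinases ROR1 and ROR2 at 4.51 and 2.22 against 0.143 and 0.345. LDHA to LDHB, the subunits of lactate dehydrogenase, stood at 0.184 and 0.0471 against 1.20 and 0.93, with a gap between the bESC lines. The change of LDHA was -2.33, and -1.24 without bESC line B, and its call was lost without fibroblast line A (adjusted p = 0.111), that of NOTCH2 without bESC line A (0.0604). NR2F2 to NR2F6 stood at 0.0222 and 0.211 against 1.4 and 1.04, and the call of NR2F2 was lost without bESC line A (adjusted p = 0.115), without fibroblast line A (0.146) or without blastocyst pool A (0.0629) or B (0.0628).

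**Figure D5:**
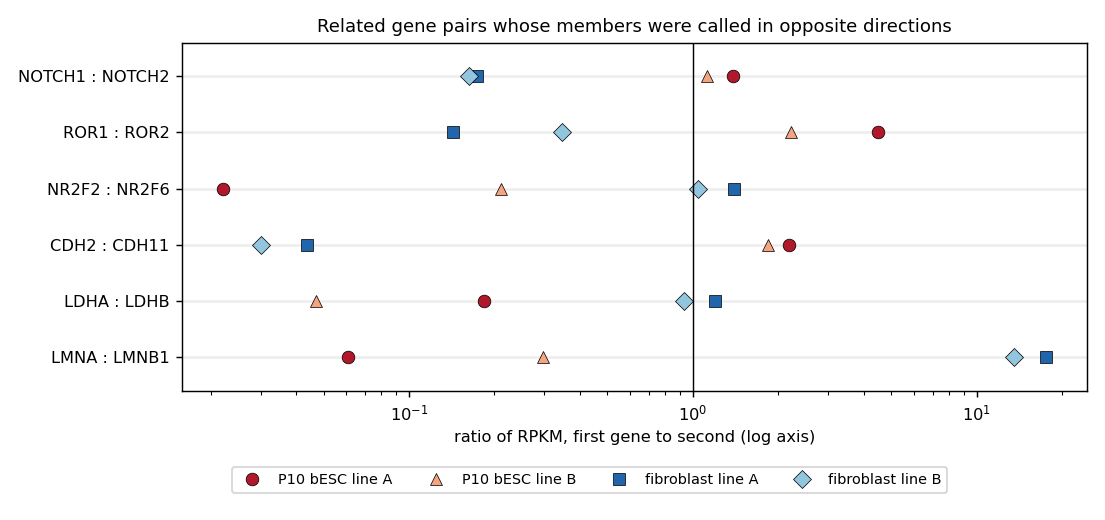
Ratio of RPKM between the members of the 6 related gene pairs called in opposite directions, 1 marker per library on a log axis, with a line at a ratio of 1. The 6 pairs were chosen from 30 by these calls, so the separation of bESC and fibroblast libraries largely follows from that choice. LMNA to LMNB1 spans 0.0611 to 17.6.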

How the data were processed

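The authors deposited 1 file of RPKM values per library, with no read counts; per the labels' protocols, libraries were made from total RNA with a TruSeq RNA kit. The build UMD3.1 and the tool edgeR are named in the submitters' processing notes without a role; the aligner, the counter and the annotation are not named in the material at hand, that is, not given in the sources used here. Without gene lengths no read numbers follow from RPKM, so depth in reads is unknown and no count test was run. Features with an unreadable name (26), a date for a name (25) or a blank value (21) were left out. A table of bovine reference symbols matched 13608 names and, as synonyms, 1356 more. List symbols were matched to the file names exactly or through a listed alias.

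From the files, log2(RPKM + 1) was computed and genes that reached 1 RPKM in 2 or more of the 6 libraries (2 P10 bESC, 2 fibroblast, 2 blastocyst) were fitted with limma 3.58.1 in R 4.3.3, empirical Bayes with trend, two-sided, Benjamini-Hochberg over 11761 genes, called at 0.05. Tables were made in Python 3.11.15 (numpy 2.4.6, pandas 2.3.3). The fit was tested on simulated data. P-values test the change before the median gene is subtracted. Members and lists were chosen with earlier results of these data known. Per function list, named genes are up to 4 members in each direction with the largest change among those called under every scaling, separate in all 4 pairs of libraries and averaging 5 RPKM or more in the higher group, plus up to 2 uncalled members of highest mean. The 12 largest changes in each direction over all genes (10 RPKM or more in the higher group), the opposite pairs and the detected markers were added. Other named genes were chosen after their values were seen. The later-passage libraries, 8 in number, were not used. Some genes are counted in their lists but not reported here by name. Alternatives are given in the closing section.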

Additional observations from a re-analysis of the deposited data

How the results depend on the processing

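Call counts moved most when a library was left out. Such a fit also has fewer libraries and fewer genes tested, so its counts do not show dependence on that library alone. With 1 of the 6 libraries left out, higher calls numbered 2426 to 3901 and lower calls 1691 to 2413; fewest were called higher without bESC line A and lower without fibroblast line A. Where a group keeps 1 library, it is assumed to vary like the others. Across the other settings higher calls numbered 3210 (median-of-ratios scaling) to 4676 (no filter) and lower calls 2322 (pseudocount of 0.1) to 3206 (median gene centred). The line letters did not pair the samples: the correlation of deviations was -0.099 between bESC and fibroblasts, and with a replicate block on the letter 4056 genes were called higher and 2514 lower. Among genes named, CDKN2A, not called with all libraries, turned to a higher call without bESC line A (0.86) and to a lower call without line B (-2.29), and no other reversed under a setting run. Of 90 list counts, 33 moved by over 1.5 times without bESC line A, 25 without bESC line B, 25 without fibroblast line A and 23 without fibroblast line B, and up to 10 under any setting that kept all 6 libraries. Changes of genes near 0 in a group depend on the pseudocount: at 0.1 IFIT1 fell by 8.23 in place of 5.32.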
